A study of Mus musculus with 4 samples.

Results

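High-scoring TopoIIa peaks called without Brg1 were the peaks on chromosomes 1 to 19 of the knockout list whose deposited score was at least 100. There were 329 of them, out of 4622 knockout peaks in all, 4200 of which lay on autosomes. These peaks were chosen by their knockout score, so their scores, and their widths in the same list, are given as description and carry no test. Just inside the limit, 2 peaks on chromosome 16 (53348002 to 53348281 and 93598149 to 93598237) scored 100.03 and a peak on chromosome 1 (197067742 to 197068077) scored 100.14. Just outside it, peaks on chromosomes 5 (56048122 to 56048359), 12 (114662703 to 114662959) and 14 (108251619 to 108251680) scored 99.99, 99.92 and 99.46. All positions are in mm9 and 1-based.

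The peaks come from mouse embryonic stem cells that carried a floxed Brg1 allele with actin-CreER, a V5-tagged human TopoIIa, and a knockdown of the mouse enzyme. Every sample of the series shares these changes. Tamoxifen for 24 h gave the Brg1-/- cells and ethanol for 24 h the wild-type control. Both then had 48 h in medium and a final 10 min in 100 µM etoposide, after which the covalent TopoIIa-DNA complexes were pulled down with an anti-V5 antibody. Tamoxifen reached only the knockout cells, so the drug and the deletion cannot be told apart. The stock was kept on embryonic feeder cells before plating on gelatin, and the peak lists hold no marker that would check the cell type or the loss of Brg1. Each genotype has 1 V5 library and 1 input, and the inputs were not analysed here. With no replicates, no p-value between genotypes was computed, and the depth of the libraries is unknown. Intervals given with shares are exact binomial (Clopper-Pearson) 95% intervals that cover counting error only and treat neighbouring peaks as independent.

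Topoisomerase IIα cuts both strands of one DNA duplex, passes another duplex through the gap and reseals it. In this way it separates sister chromatids that remain intertwined after replication, including at the satellite DNA of centromeres and at the tandem ribosomal RNA genes. Etoposide blocks the resealing step and leaves the enzyme covalently bound to its cut site. Brg1 is the ATPase of the BAF chromatin remodelling complex of embryonic stem cells.

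Of the 329 high-scoring knockout peaks, 180 (54.7%, 49.2 to 60.2%) shared at least 1 bp with a wild-type peak, and 149 shared none. Over all autosomal knockout peaks, 21.2% did so. Among the 3871 autosomal knockout peaks with scores under 100 the number was 711 (18.4%, 17.2 to 19.6%), an interval that lies wholly below that of the high-scoring peaks. No test was made between these sets of peaks, since all come from 1 library. The share grew with the score below the limit, from 14.2% (12.8 to 15.7%) at scores of 50 to under 60, to 22.05% (19.8 to 24.4%) at 60 to under 80, and to 37.6% (31.7 to 43.8%) at 80 to under 100. Within the high-scoring peaks it was 50% (98 of 196, 42.8 to 57.2%) at 100 to under 150, and 68.0% (34 of 50, 53.3 to 80.5%) at 150 to under 200. At 200 to under 400 it was 56.4% (31 of 55, 42.3 to 69.7%), and at 400 or more 60.7% (17 of 28, 40.6 to 78.5%). Above the limit the share was thus lowest in the class next to it, and it did not grow steadily with the score. The 17 at 400 or more include 1 peak at the 45S copy, 4 in the satellite block and 2 beside centromeric gaps, described below. Shares by score class without such positions were not computed, so the order of the classes may depend on them. Differences between these classes were not tested. Overlaps were close to all or nothing: 178 of the 180 lay wholly inside the wild-type peak, as did 99.4% of all autosomal knockout peaks that touched one.

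**Figure D1:**
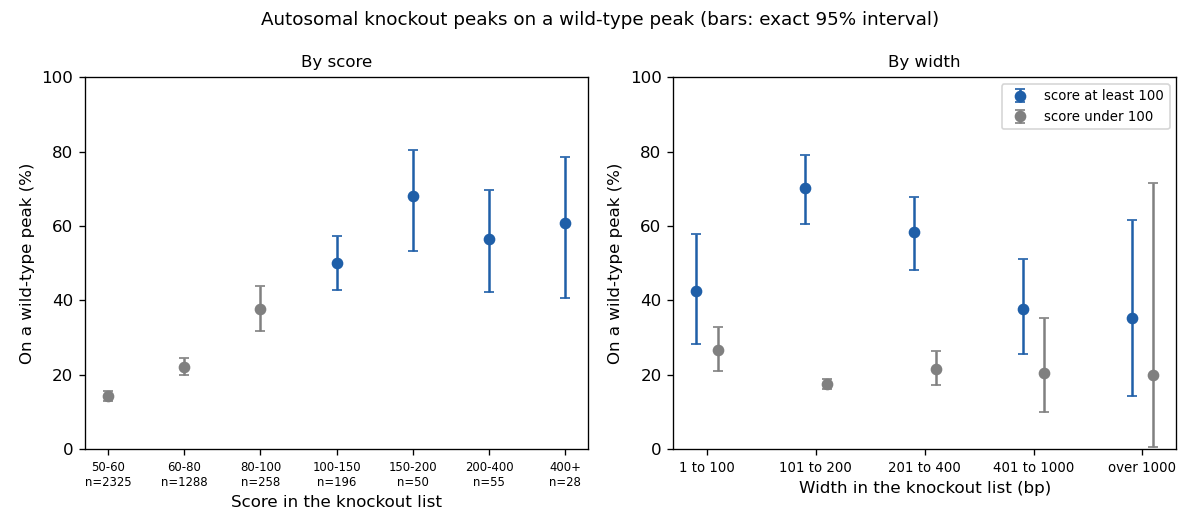
Percentage of autosomal knockout peaks that overlap a wild-type peak, by score class (left; number of peaks under each class) and by width class in bp (right). Blue points are peaks scoring at least 100, grey points those scoring under 100, and bars are exact 95% intervals. On the left the share goes from 14.2% in the lowest class to between 50% and 68.0% above the limit, and on the right the blue point lies above the grey one in each of the 5 width classes, with overlapping bars in the narrowest class and the 2 widest.

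High-scoring knockout peaks had a median width of 234 bp (interquartile range 140 to 384 bp, from 56 to 6881 bp). The other autosomal knockout peaks had a median of 140 bp (128 to 156 bp). Both very narrow and very wide peaks took larger shares of the high-scoring peaks. At most 100 bp were 47 of them (14.3%, 10.7 to 18.5%), against 6.40% of all autosomal knockout peaks, and 17 (5.17%, 3.04 to 8.14%) were wider than 1 kb, against 5 of the 3871 others (0.129%). Peaks without a wild-type peak had a median width of 288 bp (146 to 458 bp) and those on one 199.5 bp (135 to 336 bp). At scores of 400 or more the order was the reverse, with medians of 157 bp over 11 peaks and 575 bp over 17. Peaks without a wild-type peak were also at most 100 bp wide in 18.1% of cases (12.3 to 25.3%), against 11.1% (6.92 to 16.6%) of those on one. Score and width went together more closely in the peaks on a wild-type peak (Spearman rho = 0.51 over 180 peaks) than in those without one (0.19 over 149). These are correlations across peaks of 1 library, given as description.

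Within each class of width, the share on a wild-type peak was again higher for high-scoring than for weaker peaks, in 2 of 5 classes by more than the counting intervals. Among peaks of 101 to 200 bp, 71 of 101 high-scoring peaks (70.3%, 60.4 to 79.0%) lay on a wild-type peak, against 573 of 3280 lower-scoring ones (17.5%, 16.2 to 18.8%). At 201 to 400 bp the shares were 58.3% (60 of 103, 48.1 to 67.9%) and 21.6% (69 of 320, 17.2 to 26.5%). For the narrowest peaks, up to 100 bp, they were 42.6% (20 of 47, 28.3 to 57.8%) and 26.6% (59 of 222, 20.9 to 32.9%), intervals that overlap. At 401 to 1000 bp the shares were 37.7% (23 of 61, 25.6 to 51.04%) and 20.5% (9 of 44, 9.80 to 35.3%), and above 1 kb 6 of 17 high-scoring peaks (35.3%, 14.2 to 61.7%) and 1 of 5 others lay on a wild-type peak. In the plot of width against score, peaks without a wild-type partner make up 27 of the 47 at the narrow end and 11 of the 17 above 1 kb.

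**Figure D2:**
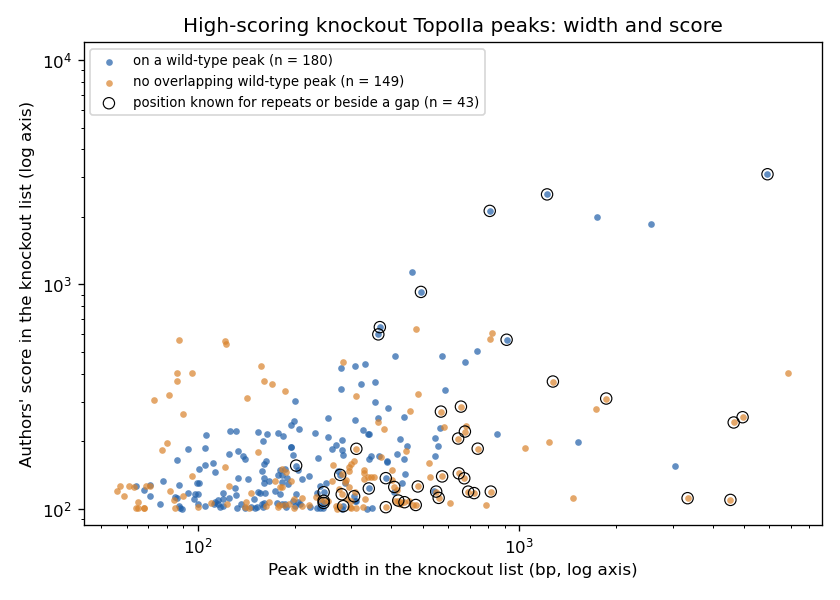
Score in the knockout list against width in bp for the 329 high-scoring knockout peaks, both on log axes. Blue points overlap a wild-type peak (n = 180), orange points do not (n = 149), and black rings mark the 43 peaks at positions known for repeated sequence or beside a centromeric gap. Orange points are seen at widths under 130 bp with scores up to 562.96 and at widths over 3 kb, while the scores above 1000 all belong to blue points.

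The 159 wild-type peaks under high-scoring knockout peaks were 0.993% of the 16012 autosomal wild-type peaks, and 151 of them held 1 such knockout peak. Their scores in the wild-type list, which the choice of peaks did not use, had a median of 309.33 (interquartile range 163 to 478). The median over all autosomal wild-type peaks was 105.585 (69.8 to 180). Of the 159, 79 (49.7%, 41.7 to 57.7%) stood in the top 10% of the wild-type list by score, and 18 (11.3%, 6.85 to 17.3%) scored under 100, where 47.1% of all autosomal wild-type peaks did. Read the other way, a high-scoring knockout peak lay on 0.239% of wild-type peaks scoring under 100 (18 of 7539, 0.142 to 0.377%). The share was 0.675% at 100 to under 200 (34 of 5039, 0.468 to 0.942%), 2.20% at 200 to under 400 (54 of 2453, 1.66 to 2.86%) and 4.74% at 400 to under 1000 (38 of 802, 3.37 to 6.45%). At 1000 or more it was 8.38% (15 of 179, 4.77 to 13.4%). Most of the strongest wild-type peaks therefore had no high-scoring knockout peak, and among the 26 autosomal ones at 3100 or more, 4 did.

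Their median width in the wild-type list was 2320 bp, against 2166 bp for all autosomal wild-type peaks, and 9 of the 159 (5.66%, 2.62 to 10.5%) were over 5 kb, against 340 of 16012 (2.12%, 1.91 to 2.36%). The knockout peak covered a median of 7.93% of its wild-type peak (5.29 to 11.97%). Taking the highest knockout peak on each of the 159 wild-type peaks, the scores in the lists were related (Spearman rho = 0.52, and 0.52 over the 154 outside the positions described below), and the widths less so (0.25). These rank correlations describe peaks that share 2 libraries.

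**Figure D3:**
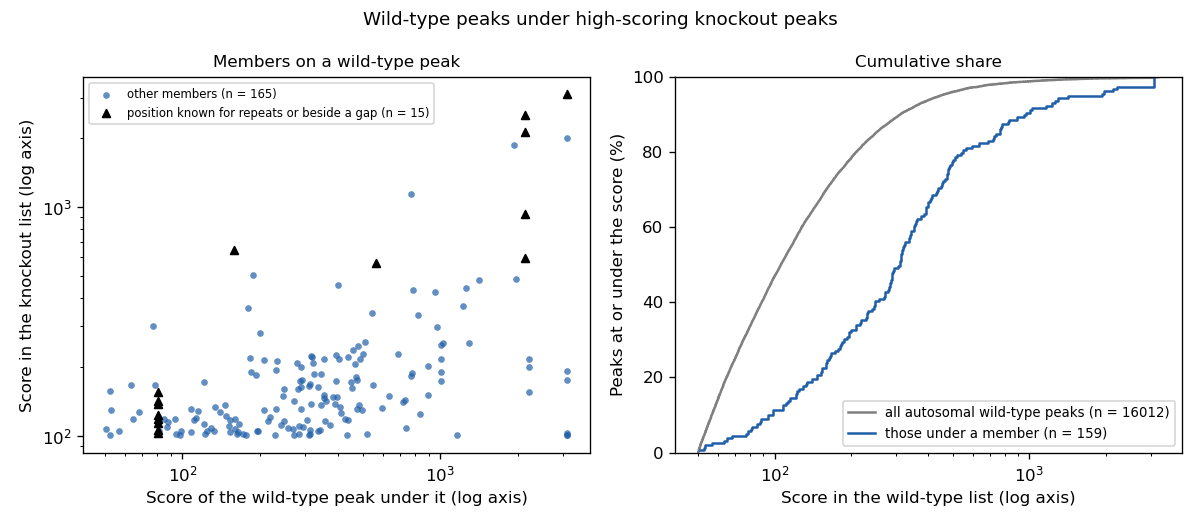
Left, score in the knockout list against the score of the wild-type peak under it, both on log axes, for the 180 high-scoring knockout peaks on a wild-type peak. Triangles mark the 15 at positions known for repeated sequence or beside a centromeric gap. Right, cumulative percentage of peaks by score in the wild-type list (log axis) for all 16012 autosomal wild-type peaks (grey) and for the 159 under a high-scoring knockout peak (blue). The blue curve lies to the right, with a median of 309.33 against 105.585.

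Most high-scoring knockout peaks were close to the midpoint of their wild-type partner. In 108 of 180 (60%, 52.4 to 67.2%) the centre fell in the central 25% of the wild-type width, against 51.9% of all autosomal knockout peaks on a wild-type peak and 49.8% (46.1 to 53.5%) of the lower-scoring ones. With wild-type partners wider than 5 kb left out, the median distance between the centres was 175.5 bp (interquartile range 79.3 to 314.8 bp) over 156 high-scoring peaks. For 581 lower-scoring peaks it was 243.5 bp (119 to 404.5 bp). The central shares on those wild-type peaks were 63.5% (55.4 to 71.0%) and 54.7% (50.6 to 58.8%), and their intervals overlap. A peak on chromosome 16 from 57391227 to 57391801 (score 478.91) lay 0.5 bp from the centre of a wild-type peak of 3384 bp that scored 1417.03.

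**Figure D4:**
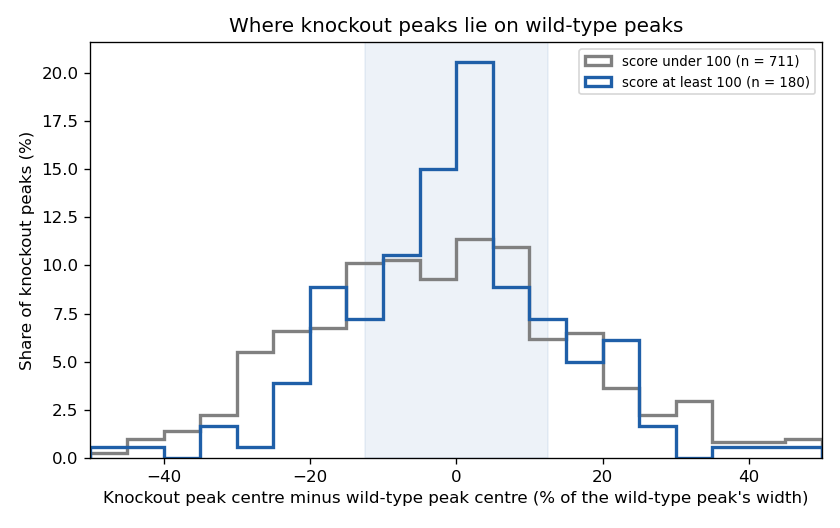
Signed distance from the centre of the wild-type peak to the centre of the knockout peak, as a percentage of the wild-type peak's width (centres beyond the edge are drawn in the last bar), in steps of 5%. Blue is the 180 knockout peaks scoring at least 100 and grey the 711 scoring under 100, each scaled to 100%, and the shaded band is the central 25%. The blue outline is higher around 0, with 60% of peaks in the band against 49.8%. On wild-type peaks up to 5 kb wide the shares were 63.5% (55.4 to 71.0%) and 54.7% (50.6 to 58.8%), intervals that overlap.

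The strongest knockout peak, on chromosome 17 from 39979921 to 39985842, was 5922 bp wide and scored 3100. It lay inside a wild-type peak from 39978571 to 39987150 that also scored 3100, and the centres were 21 bp apart. This stretch of mm9 is known as a copy of the 45S pre-ribosomal RNA gene, the precursor of the 18S, 5.8S and 28S RNAs. The tandem arrays of that gene lie elsewhere and are largely unassembled, so reads from many copies can collect on the one that is placed. No mm9 sequence was used here, so this and the other repeat names are background knowledge of the position. Their part in the scores was not tested. A score of exactly 3100 recurs at wild-type peaks on chromosomes 4, 12 and 15, so equal scores of 3100 are not read here as equal strength.

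The next positions by score include the block on chromosome 2 between 98502366 and 98507510, known in mm9 for sequence of the major satellite type found beside centromeres. It held 4 high-scoring peaks of 364 to 1220 bp and no weaker knockout peak. Their scores, in order along the chromosome, were 2127.67, 926.2, 598.84 and 2520.3, so the outer peaks were higher than the inner ones. Their starts were 1244 to 1409 bp apart. All 4 lay in 1 wild-type peak of 7444 bp that scored 2129.64.

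Outside such known positions, the top scores were on chromosomes 4, 17 and 9. The chromosome 4 peak (118219636 to 118221375, 1740 bp) scored 2000.49 on a wild-type peak of 3469 bp with a score of 3100. On chromosome 17 a peak of 2567 bp (13743505 to 13746071) scored 1859.81 in the knockout list, and its wild-type peak of 5185 bp scored 1937.57. The chromosome 9 peak (35112737 to 35113200, 464 bp) scored 1136.91, and the wild-type peak there scored 767.6. The 8 highest scores of the list all belonged to peaks on a wild-type peak. The last of these, a peak beside the centromeric gap of chromosome 12 (3109775 to 3110142), scored 645.12 on a wild-type peak that scored 159.22, inside the interquartile range of the wild-type list.

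The order of the scores in the lists did not always match. On chromosome 12, 4 peaks between 114014500 and 114018910 scored only 100.35 to 175.2, yet they lay in a wild-type peak of 11806 bp that scored 3100. A peak on chromosome 15 (91738901 to 91739347) scored 191.12 on a wild-type peak of 5270 bp with the same score of 3100. At the other end, a peak on chromosome 16 (25566165 to 25566277, score 106.63) lay on a wild-type peak that scored 50.76. A pair on chromosome 4 (20931315 to 20931419 and 20931459 to 20931546, scores 156.96 and 100.83) lay on one that scored 52.58. Peaks on chromosome 2 (122668909 to 122669338, score 129.84) and chromosome 3 (56051158 to 56051339, score 104.89) lay on wild-type peaks scoring 53.08 and 56.85. These wild-type scores are near the lowest in that list, which is 50. A score is comparable only within its own list, so no ratio between the lists was formed.

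The 149 high-scoring knockout peaks without a wild-type peak had scores from 100.2 to 634.76, with a median of 126.85 against 141.265 for those on one. Their median distance to the nearest wild-type peak was 70.0 kb (interquartile range 23.4 to 144 kb). Of the 149, 2 (1.34%) had one within 1 kb, 20 (13.4%) at 1 to 10 kb, 80 (53.7%, 45.3 to 61.9%) at 10 to 100 kb and 47 (31.5%, 24.2 to 39.7%) at 100 kb or more. For the 3160 lower-scoring knockout peaks off a wild-type peak the median was 71.1 kb. Of these, 1.77% had a wild-type peak within 1 kb, 14.9% at 1 to 10 kb, 43.8% (42.0 to 45.5%) at 10 to 100 kb and 39.6% (37.8 to 41.3%) at 100 kb or more. Other wild-type peaks were about as common around both kinds of high-scoring peak. Leaving out the peak underneath, 112 of 180 peaks on a wild-type peak (62.2%, 54.7 to 69.3%) and 102 of 149 without one (68.5%, 60.3 to 75.8%) had another within 100 kb. Among all lower-scoring autosomal knockout peaks the share was close to these, at 61.0% (2363 of 3871, 59.5 to 62.6%).

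Among the 12 top-scoring peaks without a wild-type peak, the first 3 by score were 476 to 823 bp wide. They lay on chromosome 17 (4626116 to 4626591, score 634.76, 358 kb from a wild-type peak), chromosome 15 (74916668 to 74917490, score 605.66, 80.1 kb) and chromosome 12 (68160140 to 68160952, score 572.15, 20.5 kb). Of the rest, 6 were at most 122 bp wide. The narrow ones lay on chromosome 6 (132413736 to 132413822, 87 bp, score 562.96), chromosome 2 (60240793 to 60240913, 121 bp, 561.56) and chromosome 1 (12634827 to 12634948, 122 bp, 542.61). Peaks of 96 bp on chromosome 9 (19379860 to 19379955) and 86 bp on chromosome 14 (104736166 to 104736251) shared the score 404.71 exactly. A peak of 86 bp on chromosome 7 (105208525 to 105208610) scored 370.96, and it lay 2.43 kb from a wild-type peak. Between them came peaks of 282 bp on chromosome 6 (103599027 to 103599308, score 451.95) and 157 bp on chromosome 17 (56339429 to 56339585, score 435.01), the latter 1.54 kb from a wild-type peak. The widest high-scoring peak also belonged to this set. It covered 6881 bp of chromosome 8 (19923938 to 19930818, score 401.63), and at 570 kb it was also the farthest of the 149 from a wild-type peak.

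Peaks of at most 100 bp were looked at separately. The 47 of at most 100 bp had a median score of 120.34, ranged up to 562.96 and included 20 on a wild-type peak and 27 without one. Of these 47, 19 had exactly the score of another high-scoring peak, against 39 of the 282 wider ones. The most frequent score, 100.83, occurred 6 times. A peak of 56 bp on chromosome 5 (63322759 to 63322814, score 120.34) lay 502 kb from a wild-type peak, the second farthest. The next in distance were a peak of 371 bp on chromosome 1 (196019775 to 196020145, score 169.4, 425 kb) and the narrow peaks on chromosomes 9 and 1 named above, at 414 and 405 kb.

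Most high-scoring knockout peaks stood alone. With gaps of at most 10 kb, 273 of 329 (83.0%, 78.5 to 86.9%) had no other high-scoring peak nearby, 16 stood in 8 pairs, and 40 (12.2%, 8.83 to 16.2%) in 8 groups of at least 3. Over all autosomal knockout peaks, 7.10% stood in groups of at least 3 knockout peaks, a measure that rises with the number of peaks counted. The 329 peaks thus made 289 places, of which 163 held a peak on a wild-type peak. With weaker peaks counted as neighbours, 79 of 329 (24.0%, 19.5 to 29.0%) had another knockout peak within 10 kb, against 17.7% (16.6 to 19.0%) of the lower-scoring peaks. In the 8 groups of at least 3, 15 peaks lay on a wild-type peak and 25 did not, and each group was wholly of one kind.

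The biggest groups were neighbours on chromosome 6. From 47693855 to 47728279 there were 10 high-scoring peaks among 24 knockout peaks, with scores of 108.54 to 285.23, and from 47609885 to 47636413 there were 6 among 28, with scores of 101.59 to 136.66. Their widths ran from 246 to 815 bp. None of the 66 knockout peaks of this stretch touched a wild-type peak, and the shortest distance from a high-scoring peak to a wild-type peak was 56.4 kb. The stretch is known as the tandem array of the 4.5S RNA gene, a small rodent RNA made by RNA polymerase III. The RefSeq gene table of GRCm38.p6, another build, lists 1 Rn4.5s entry on this chromosome between Ezh2 and Pdia4. That gene table alone therefore does not show a tandem array. This array was recognised after the peaks had been seen.

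On distal chromosome 8 the 5S ribosomal RNA array gave a contrasting picture. The 5S RNA is a small RNA of the large ribosomal subunit, likewise made by RNA polymerase III, and the GRCm38.p6 table lists 48 rRNA genes between Gas8 and Rhou. The position held 59 knockout peaks, 8 of them high-scoring, with scores of 102.67 to 155.69 and widths of 202 to 384 bp. All 59 lay inside 1 wild-type peak from 126059865 to 126149272, which was 89408 bp wide but scored only 80.28, below the wild-type median. The high-scoring peaks lay 6125 to 42042 bp from its centre. The RNA polymerase III arrays thus differed in the wild-type list, with a broad low-scoring peak over the 5S genes and none over the 4.5S genes.

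The remaining groups were of both kinds. On chromosome 13 from 74665831 to 74668087, 4 peaks scoring 172.44 to 247.51 lay in a wild-type peak of 4671 bp that scored 1007.96. On chromosome 8 from 56201375 to 56209058, 3 peaks of 854 to 3062 bp scoring 154.46 to 216.07 lay in one of 13281 bp that scored 2203.3. A group of 4 on chromosome 10 (7229382 to 7235299, scores 105.81 to 277.7, widths 608 to 1736 bp) had no wild-type peak within 73.7 kb.

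Sequence beside the centromere is placed in mm9 only after a gap of 3 Mb. Within the first 0.2 Mb of it lay 13 high-scoring peaks on 5 chromosomes (4, 6, 11, 12 and 18), 3.95% of the 329, where 0.810% of all autosomal knockout peaks lay. Of the 13, 8 were on chromosome 11. A group of 5 there, from 3000004 to 3004797, began at the first bases placed and scored 106.93 to 309.94. Wide peaks followed at 3031251 to 3036204 (4954 bp, score 255.84), 3041064 to 3045603 (4540 bp, score 109.46) and 3091020 to 3094359 (3340 bp, score 111.41). None of these 8 touched a wild-type peak, and the nearest was 94.9 kb away. A pair on chromosome 4 (3016621 to 3017190 and 3017205 to 3018476, scores 271.03 and 369.07) lay 2.35 and 2.93 kb from one. The peak on chromosome 6 from 3150746 to 3151658 scored 566.84 on a wild-type peak that scored 563.44. The major satellite arrays themselves are not placed in mm9.

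A high-scoring peak of 4648 bp on chromosome 1 (24618374 to 24623021, score 242.4) had no wild-type peak within 114 kb. This position is known as a long nuclear copy of mitochondrial DNA, recognised after the peaks had been seen, and reads of mitochondrial DNA can map to it. Together, the ribosomal, satellite, 4.5S and mitochondrial positions and the centromeric edges held 43 of the 329 peaks (13.1%, 9.62 to 17.2%), and 165 of all autosomal knockout peaks (3.93%). They held 15 of the 180 on a wild-type peak (8.33%, 4.74 to 13.4%) and 28 of the 149 without one (18.8%, 12.9 to 26.0%). Of those 28, 16 lay in the 4.5S array and 1 on the mitochondrial copy, positions named after the peaks had been seen. The 4.5S array also held 66 of the 165. The contrasts in these shares therefore rest in part on the peaks themselves and are description only. Of the 17 peaks wider than 1 kb, 8 were among the 43. Without the 43, 165 of 286 (57.7%, 51.7 to 63.5%) lay on a wild-type peak. Other repeats were not looked for, since no mm9 sequence was used here.

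By chromosome, the counts ran from 6 on chromosome 19 to 37 on chromosome 6. Per Mb up to the last called peak, chromosome 6 had 0.248 and chromosome 15 had 0.0773. Without peaks in groups of at least 3, chromosome 6 had 0.141 and chromosome 8 had 0.159, but 8 of the 21 such peaks on chromosome 8 came from the 5S array. With all repeat-associated and centromeric-edge peaks left out as well, chromosome 8 had 0.0987 per Mb, chromosome 6 had 0.134, and the highest density was 0.153, on chromosome 16. The share on a wild-type peak was highest on chromosome 13 (14 of 16, 87.5%, 61.7 to 98.4%) and lowest on chromosome 6 (9 of 37, 24.3%, 11.8 to 41.2%), where the 4.5S array supplied 16 of the 28 peaks without one. On chromosome 11, with 5 of 18 on a wild-type peak (27.8%, 9.69 to 53.5%), the centromeric edge supplied 8 of the 13 without one. On the other autosomes the intervals were wide and the order carries little information.

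**Figure D5:**
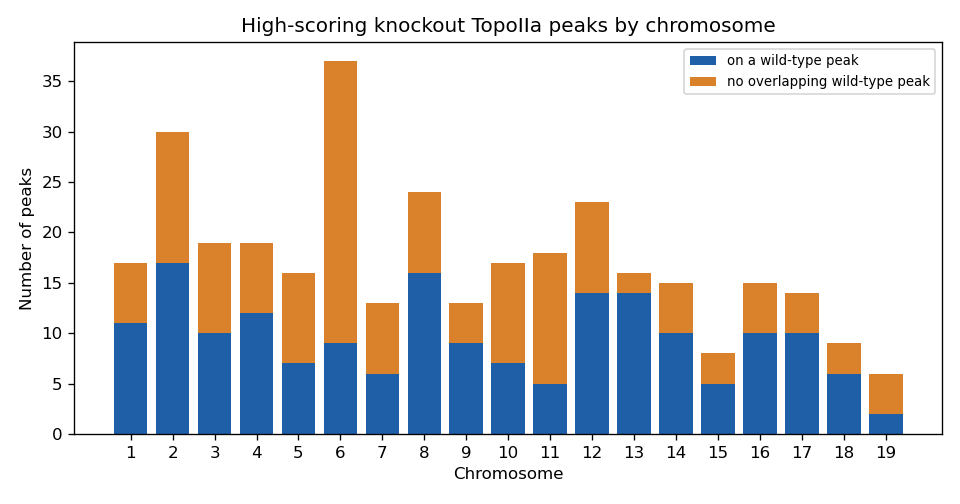
Number of high-scoring knockout peaks on each autosome, split into those on a wild-type peak (blue) and those without one (orange). Chromosome 6 has the highest bar, with 37 peaks of which 28 have no wild-type peak, and chromosome 13 has 2 of 16 without one.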

How the data were processed

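For each V5 library the authors deposited 1 headerless list of peaks in mm9 with a score per peak. The submitters' processing notes name Bowtie 0.12.8, MACS 1.4.2 and mm9 without roles, and peaks are named in the style of MACS. Lowest values of the deposited score were 50.02 (knockout) and 50 (wild type), which match a scale of −10 log10 p. The calling control, the filters and the treatment of multiply mapped reads are not given in the sources. They act on score, width and number. Libraries had 17 cycles of amplification and selection at about 300 bp, per the labels' protocols.

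Groups came from the sample titles. The peaks and lists were chosen with earlier results of these data known. Peaks of the lists were matched when they shared at least 1 bp, and no high-scoring knockout peak touched several wild-type peaks. Named sites were the 12 top scores, the 12 top scores without a wild-type peak, the 5 widest, the 5 highest and lowest wild-type scores, the 5 farthest, groups of at least 3 and the 3 on each side of the limit, ties broken by width. The 4.5S array, the mitochondrial copy, the width and score classes and the class of at most 100 bp were chosen after their values were seen. Overlap was tested on 400 simulated peaks, placed at the centre of a simulated wild-type peak or far from any, and all were classed correctly. Grouping was checked on a short made-up list of intervals. Scripts ran under Python 3.11.15 with scipy 1.17.1, pandas 2.3.3, matplotlib 3.10.9 and numpy 2.4.6. Alternatives were other score limits, overlap rules, gaps and sets of peaks. The gene table of GRCm38.p6 served only for names and neighbours, and no sequence is printed.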

Additional observations from a re-analysis of the deposited data

How the results depend on the processing

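Among 34 alternatives, 14 left the counting interval of the main value (for the number of peaks, a range of 1.5 times) and 20 did not. Score limits of 80, 150 and 200 gave 587, 133 and 83 peaks with median widths of 195, 311 and 356 bp. The share on a wild-type peak (54.7%) became 47.2% and 61.7% at 80 and 150. It became 46.8% when wild-type peaks had to score 100 or more (15.8% over all autosomal knockout peaks). Without wild-type peaks over 5 kb it was 47.4%, with the knockout peaks on those kept in the total and counted as having none. The median width (234 bp) was 198 bp without the 43 peaks at positions known for repeats or beside a centromeric gap. That alternative was added after seeing the data, as was leaving out peaks of at most 100 bp. The share in groups (12.2%) became 5.17% with gaps of at most 1 kb and 17.0% with groups of at least 2. The central share (60%) was 93.3% for the central 50%, by construction. No paired analysis was possible because there is 1 V5 library per genotype, and no replicate could be left out. Causes were not tested. Depth is unknown, so a missing wild-type peak means not called at that depth and threshold.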
